A study of Rattus norvegicus with 40 samples.

Results

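Transcripts of 8 genes of the cholesterol pathway were set down by name for description: Hmgcs1, Idi1, Fdps, Fdft1, Sqle, Lss, Cyp51 and Insig1. Of these, 7 were represented by a transcript cluster, a set of probes read out as 1 value per array, whose only gene symbol in the platform annotation used was theirs. Hmgcs1, which encodes the cytosolic enzyme that makes HMG-CoA, was not matched and is not analysed here. Insig1 had 2 transcript clusters, of which the one with the higher mean was used, and the other genes had 1 each. All 7 passed the filter on low intensity and are among the 10860 transcript clusters tested of 28826 on the array. None of the 7 encodes an uptake protein, so the set is one of synthesis enzymes plus the sterol sensor Insig1.

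The study asked how mTOR controls translation in rat liver. RNA from 20 livers of Sprague Dawley rats was read on 40 arrays, 1 of total RNA and 1 of polysome RNA, the RNA bound to several ribosomes and recovered from sucrose gradients, for each liver. In the refed model, adults of 125 to 150 g were fasted for 48 h, injected with 250 µg of rapamycin for every 100 g they weighed or with its solvent DMSO, and fed again from 1 h later for 3 h. In the hepatectomy model, adults of the same weight had the same injections 1 h before surgical removal of part of the liver, and the regenerating liver was taken 24 h after surgery. In the fetal model, fetuses were injected with 50 µg of rapamycin or with DMSO on day 19 of gestation and the livers were taken on day 20. The 3 models, 2 treatments and 2 fractions make 12 groups, with n = 3 livers in each adult group and n = 4 in each fetal group. No group used here was left uninjected or came from unoperated adults on a normal feeding schedule, so each model is described only against the others. For the hepatectomy polysome DMSO arrays the labelled time point is that of refeeding while the titles name hepatectomy, and the titles were used.

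The mevalonate pathway builds cholesterol from acetyl-CoA. Idi1 isomerises isopentenyl diphosphate, Fdps joins isoprene units into farnesyl diphosphate, and Fdft1 joins farnesyl units into squalene, the first step committed to sterols. Sqle oxidises squalene, Lss closes the rings to give lanosterol, and Cyp51 removes a methyl group from lanosterol. The genes are classic targets of SREBP-2, a transcription factor held in the endoplasmic reticulum with its escort SCAP when sterols are plentiful. Insig1 is the protein that holds SCAP there and is itself an SREBP target. The kinase complex mTORC1, which rapamycin inhibits in part, is known to favour SREBP activity, and the liver is a main site of cholesterol synthesis.

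Since the genes are known as a co-regulated set, the stretch around the transcription start is shown for 4 of the 5 genes that had an entry in the RefSeq promoter table (GRCr8, 250 bases before to 50 after the start, 5′ to 3′ on the gene's strand). The 4 are those that held the letters CCAAT, the core of the NF-Y box, on either strand, which are in capitals. Idi1 lies on the minus strand at chr17:66547475-66547774, Lss on the minus strand at chr20:12118181-12118480, Fdps on the minus strand at chr2:176804767-176805066 and Insig1 on the minus strand at chr4:8057720-8058019.
Idi1: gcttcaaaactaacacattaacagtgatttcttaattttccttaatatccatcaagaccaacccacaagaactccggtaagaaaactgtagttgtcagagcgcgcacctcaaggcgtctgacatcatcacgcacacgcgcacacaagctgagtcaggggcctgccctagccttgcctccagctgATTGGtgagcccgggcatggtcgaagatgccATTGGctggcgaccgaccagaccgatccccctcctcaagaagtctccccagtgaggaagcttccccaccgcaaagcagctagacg
Lss: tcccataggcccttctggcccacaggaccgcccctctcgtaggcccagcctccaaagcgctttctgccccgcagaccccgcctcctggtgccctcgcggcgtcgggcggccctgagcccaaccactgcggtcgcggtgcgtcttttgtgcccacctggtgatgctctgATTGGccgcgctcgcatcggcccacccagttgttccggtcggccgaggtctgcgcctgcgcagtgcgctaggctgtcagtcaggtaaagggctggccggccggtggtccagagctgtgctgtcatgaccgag
Fdps: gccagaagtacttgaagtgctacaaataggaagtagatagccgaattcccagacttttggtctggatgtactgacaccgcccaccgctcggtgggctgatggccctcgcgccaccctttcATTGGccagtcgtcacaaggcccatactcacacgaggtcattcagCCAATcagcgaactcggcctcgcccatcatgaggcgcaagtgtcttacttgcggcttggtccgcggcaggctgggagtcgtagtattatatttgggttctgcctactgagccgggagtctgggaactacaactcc
Insig1: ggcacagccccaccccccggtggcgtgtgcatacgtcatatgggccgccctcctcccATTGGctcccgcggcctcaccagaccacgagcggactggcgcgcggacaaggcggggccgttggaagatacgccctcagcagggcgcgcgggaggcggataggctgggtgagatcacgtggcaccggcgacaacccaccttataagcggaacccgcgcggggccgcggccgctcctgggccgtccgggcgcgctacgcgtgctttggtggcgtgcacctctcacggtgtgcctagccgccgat

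Idi1 held CCAAT on the opposite strand with its first base at -66 and -35 from the start site, and Lss held 1 at -82. Fdps held 1 on each strand, at -130 and -85, and Insig1 held 1 at -193. Cyp51, the fifth gene with an entry, held none. Of all 33469 promoters in the table, 37.5% held CCAAT on either strand. GGGCGG, the core of the Sp1 box, was found on either strand in 4 of the 5 genes (Lss, Fdps, Cyp51 and Insig1) and in 33.1% of all promoters. The letters TCACNCCAC, a sterol regulatory element, were found on either strand in 0 of the 5 and in 1.12% of all promoters. No match overlapped another in these 5 windows. A match describes letters in this window and is not a measured site.

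Across the 12 groups the refed livers stood lowest. For 6 of the 7 genes the 4 refed groups were the 4 lowest group means, and for Lss 3 of the 4 were. Single arrays overlapped for all 7 genes: the highest refed array of Sqle was at 9.57 and the lowest array of the other models at 9.30, and for Insig1 these were 12.34 and 12.19. The spread of group means was widest for Idi1, from 7.95 in refed total DMSO to 10.74 in hepatectomy polysome rapamycin on the log2 intensity scale, a range of 2.79. It was 2.58 for Sqle, 1.99 for Cyp51, 1.81 for Fdft1, 1.63 for Insig1, 1.26 for Lss and 1.25 for Fdps. The highest group was a hepatectomy rapamycin group for Idi1, Lss, Fdps and Cyp51, and a fetal total group for Sqle, Fdft1 and Insig1. When the 12 groups of a gene were set in order, few of the 11 neighbouring pairs of means differed by more than the larger SD of the pair. For Sqle, Cyp51 and Insig1 this was the step of 0.96, 0.52 and 0.85 from the highest refed group to the next group. For Idi1 it was 2 steps among the fetal and hepatectomy groups, for Fdft1 1 step between refed groups, and for Lss and Fdps there was 0, so most neighbours could not be told apart. Levels are compared within a gene only, since probes of different genes differ in brightness.

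**Figure D1:**
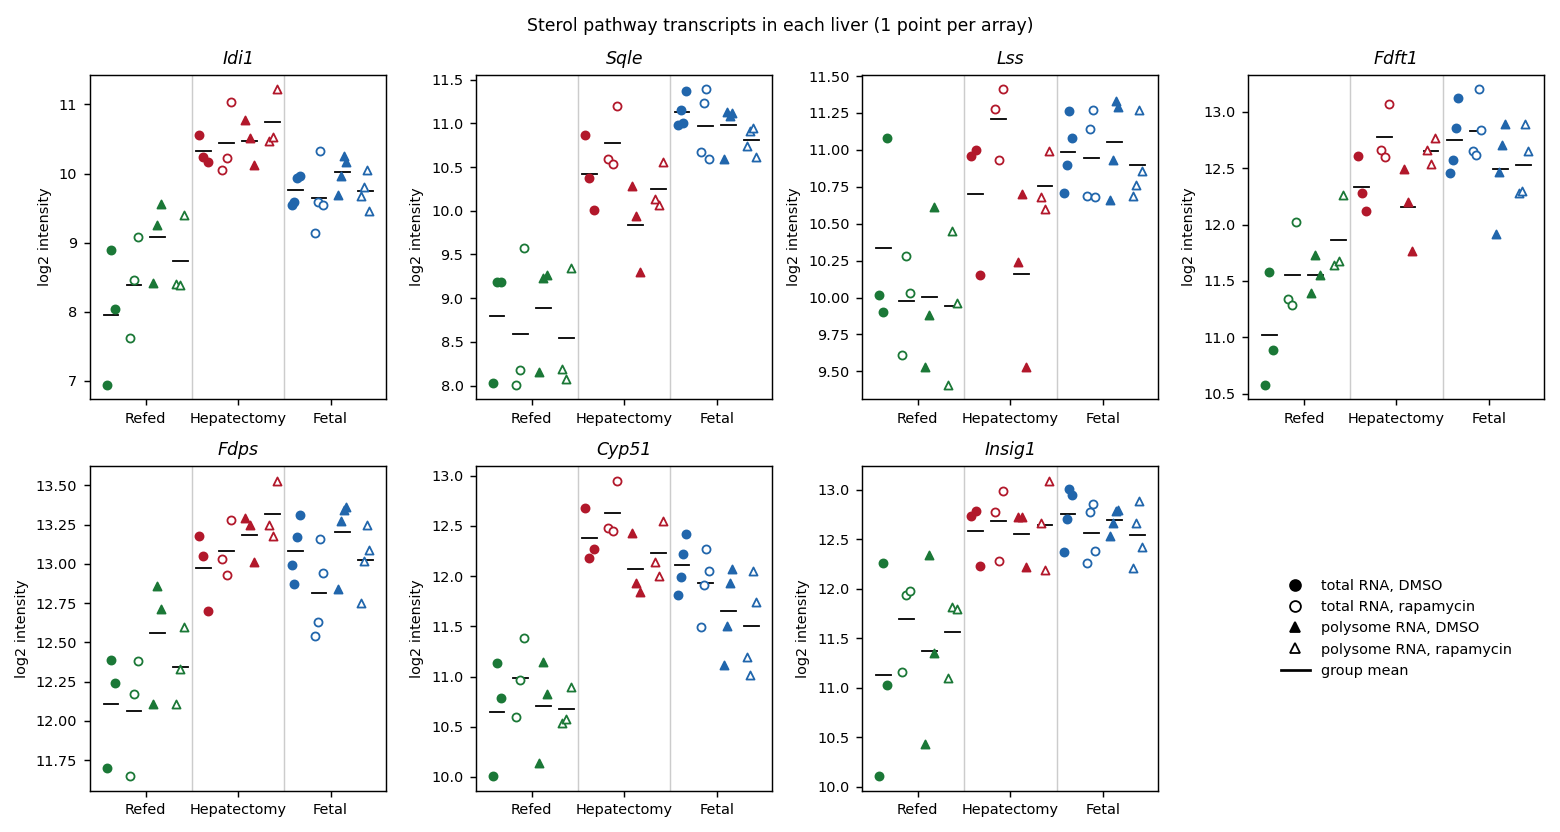
Log2 intensity of the 7 genes (vertical axes, each to its own scale) in every array, grouped by model along the horizontal axis; circles are total and triangles polysome RNA, filled for DMSO and open for rapamycin, and lines are group means of 3 adult or 4 fetal livers. For 6 genes the 4 refed group means lie lowest, while single refed arrays overlap those of other models for all 7 genes, and Idi1 shows the widest range of group means, 2.79.

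Regenerating liver was compared with refed liver in DMSO total RNA. In hepatectomy livers 6 of the 7 transcripts were higher than in refed livers past an adjusted p of 0.05 (limma with Benjamini-Hochberg adjustment, here and below), from 1.82-fold for Fdps to 5.17-fold for Idi1. Of all transcript clusters 12.4% were called higher in this comparison. The median log2 difference was 1.45 over the 7 genes and 0.02 over all tested. Of all calls 71.2% were higher, and 44.9% when each array was centred on its median, which moved the median of all to -0.11 and that of the 7 genes to 1.33, with the same number of the 7 called.

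Among the isoprenoid enzymes, Idi1 measured 10.56, 10.24 and 10.17 in the 3 hepatectomy livers and 6.94, 8.89 and 8.03 in the 3 refed livers. The hepatectomy livers lay close together and all above the refed ones, of which replicate 1 was the lowest. The difference was 2.37 ± 0.383 (SE), with adjusted p = 2.40e-05. This SE pools the spread of all groups and counts both arrays of a liver as separate. In DMSO total RNA Idi1 had an SD of 0.977 in refed and 0.208 in hepatectomy livers. The SEs and p-values of all comparisons with refed livers may therefore be too small. Fdps, the farnesyl diphosphate synthase, measured 13.18, 13.05 and 12.70 against 11.70, 12.39 and 12.24. These groups did not overlap either, and the difference was 0.87 ± 0.207, the smallest that passed (adjusted p = 0.00314).

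Among the enzymes from squalene onward, Fdft1 measured 12.61, 12.28 and 12.12 after hepatectomy and 10.58, 11.58 and 10.89 on refeeding. Sqle measured 10.87, 10.37 and 10.01 against 8.03, 9.18 and 9.19. For both, every hepatectomy liver was above every refed liver: Fdft1 was higher by 1.32 ± 0.253 (2.50-fold, adjusted p = 0.000279) and Sqle by 1.62 ± 0.367 (3.07-fold, adjusted p = 0.00193). Cyp51, the lanosterol demethylase, measured 12.68, 12.18 and 12.27 against 10.01, 11.13 and 10.79, again without overlap, and was 3.32-fold higher (1.73 ± 0.294, adjusted p = 5.30e-05). Lss, the enzyme before it, measured 10.96, 11.00 and 10.15 against 10.02, 9.90 and 11.08. Its groups overlapped, with hepatectomy replicate 3 low and refed replicate 3 the highest of all 6 livers, and its difference of 0.37 ± 0.313 missed the threshold (adjusted p = 0.457, 95% interval -0.27 to 1.01).

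The sterol sensor Insig1 measured 12.73, 12.78 and 12.23 after hepatectomy and 10.11, 12.26 and 11.03 on refeeding. The lowest hepatectomy liver lay just under the highest refed liver, and refed replicate 1 was far below the rest. Insig1 was higher by 1.45 ± 0.378 (2.73-fold, adjusted p = 0.00695), but without refed DMSO replicate 1 the difference was 0.94 and missed the threshold (adjusted p = 0.0656). In a fit on the arrays of these 2 groups alone, Insig1 (adjusted p = 0.135) and Fdps (0.0504) also missed it. In all, 5 of the 7 genes had groups without overlap, against 16.4% of all transcript clusters in the higher direction.

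The difference between hepatectomy and refed livers was present in the other groups as well. With rapamycin total RNA 6 of the 7 genes were called higher (3.90% of all), with DMSO polysome RNA 4 (7.86% of all) and with rapamycin polysome RNA 5 (5.19% of all). In both rapamycin comparisons all 7 genes, Lss included, had groups without overlap (13.7% of all in total and 18.3% in polysome RNA). Lss was 1.23 ± 0.313 higher in rapamycin total RNA (adjusted p = 0.0116), and 0.81 ± 0.313 in rapamycin polysome RNA (adjusted p = 0.103). Idi1, Fdps and Cyp51 were called in all 4 comparisons, with Idi1 at 1.40 to 2.37, Fdps at 0.62 to 1.01 and Cyp51 at 1.36 to 1.73. The 2 fractions come from the same livers and are no independent repeat, while the rapamycin livers are other animals.

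**Figure D2:**
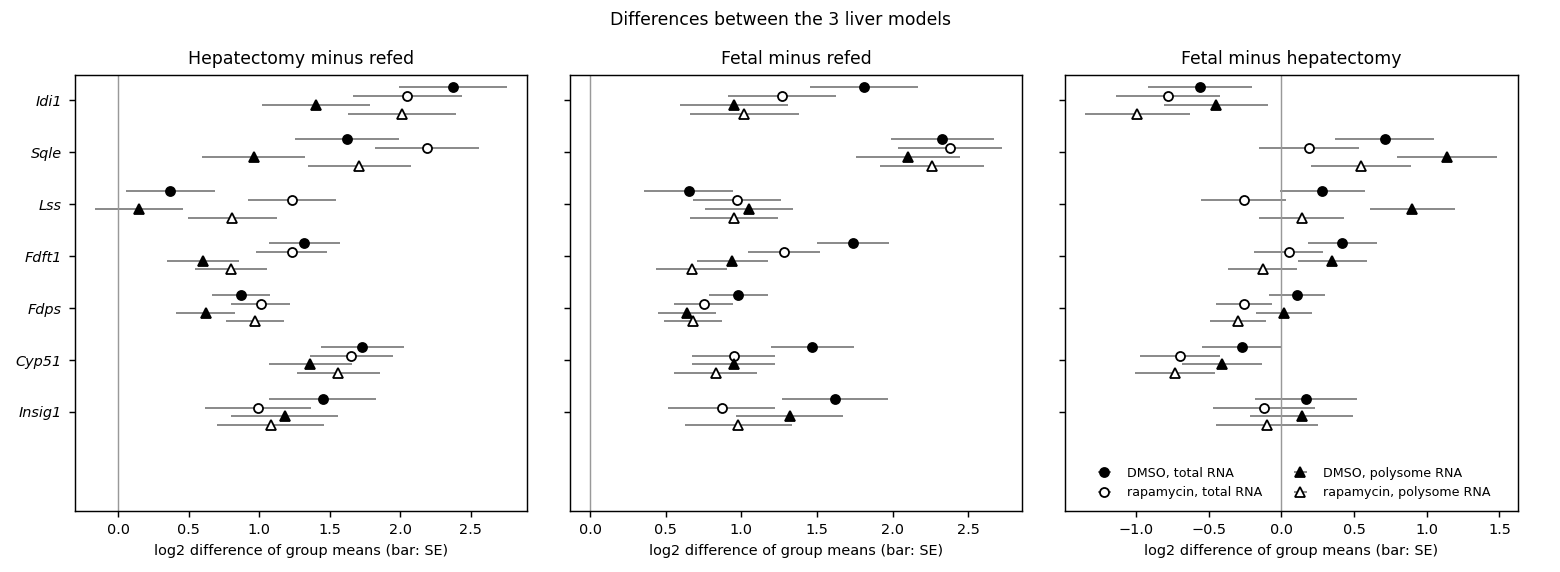
Log2 difference of group means (horizontal axes) for the 7 genes in hepatectomy minus refed, fetal minus refed and fetal minus hepatectomy livers; symbols give treatment and fraction and bars are standard errors of the fit over 40 arrays. In the first 2 panels all points lie above 0, from 0.15 for Lss to 2.38 for Sqle, and in the third they lie on both sides.

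Fetal liver was compared with the same refed DMSO total arrays, so refed livers enter both comparisons and their values move both. In fetal livers 6 of the 7 transcripts were higher past the threshold, from 1.97-fold for Fdps to 5.02-fold for Sqle, against 28.1% of all transcript clusters called higher. The median difference was 1.62 over the 7 genes and 0.04 over all tested. With median centring these medians were 1.44 and -0.14, and the share of calls that were higher went from 59.7% to 40.4%. All 6 called genes had groups without overlap, against 24.4% of all in that direction.

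Sqle, the squalene epoxidase, measured 10.98, 11.15, 11.00 and 11.37 in the 4 fetal livers, all far above the refed livers at 8.03 to 9.19. The difference was 2.33 ± 0.343 (adjusted p = 1.09e-06). Idi1 measured 9.54, 9.59, 9.94 and 9.97, and was 3.49-fold higher than in refed livers (1.81 ± 0.358, adjusted p = 9.41e-05). The fetal livers were again tightly grouped, with an SD of 0.227 for Idi1 against 0.977 in the refed group. Fdft1 measured 12.46, 12.57, 12.86 and 13.12 and was 3.34-fold higher (adjusted p = 2.70e-07). Insig1 measured 12.37, 12.70, 13.01 and 12.94, all above the highest refed liver at 12.26, and was 3.08-fold higher (adjusted p = 0.000296).

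Cyp51 measured 11.81, 11.99, 12.22 and 12.42, which was 2.77-fold above refed livers (adjusted p = 4.48e-05). Fdps measured 12.99, 12.87, 13.17 and 13.31 and had the smallest called difference, 0.98 ± 0.193 (adjusted p = 9.38e-05). Both were above every refed liver. Lss measured 10.71, 10.90, 11.26 and 11.08, and only refed replicate 3 at 11.08 fell within that span. Its difference of 0.65 ± 0.293 missed the threshold (adjusted p = 0.0672), and without refed DMSO replicate 3 it was 1.03 and passed (adjusted p = 0.00444). In the other 3 fetal against refed comparisons all 7 genes were called higher: with rapamycin total RNA (24.6% of all), DMSO polysome RNA (23.6% of all) and rapamycin polysome RNA (23.8% of all). Lss there differed by 0.95 to 1.05.

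Fetal and hepatectomy livers were compared directly in DMSO total RNA, and 0 of the 7 genes passed the limma threshold, while 36.9% of all transcript clusters did. At an unadjusted p under 0.05 there was 1, against 44.9% of all. It was Sqle, at 0.71 ± 0.343 (adjusted p = 0.106, 95% interval 0.01 to 1.41). Idi1 lay on the other side at -0.56 ± 0.358 (adjusted p = 0.227, interval -1.29 to 0.16). These 2 were the genes whose groups did not overlap, against 45.9% of all transcript clusters in either direction. In a fit on these 7 arrays alone both were called, Idi1 lower (adjusted p = 0.0234) and Sqle higher (0.0242) in fetal liver. The other 5 genes differed by -0.27 to 0.42, and their intervals reached from -0.83 to 0.90, so differences inside that span could not be resolved.

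The same models were compared in the other groups, where 50.2% (DMSO polysome), 45.3% (rapamycin total) and 53.3% (rapamycin polysome) of all transcript clusters were called. In DMSO polysome RNA Sqle (1.14 ± 0.343, adjusted p = 0.00615) and Lss (0.90 ± 0.293, adjusted p = 0.0112) were higher in fetal liver. In rapamycin total RNA Cyp51 was lower in fetal liver (-0.70 ± 0.275, adjusted p = 0.0379), and Idi1 stood at -0.78 ± 0.358 (adjusted p = 0.0740). In rapamycin polysome RNA Idi1 (-0.99 ± 0.358, adjusted p = 0.0199) and Cyp51 (-0.73 ± 0.275, adjusted p = 0.0255) were lower. In all 4 comparisons Idi1 and Cyp51 were on the lower side in fetal liver and Sqle on the higher side.

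Markers of dividing cells and of other cell types moved with the models. The mean log2 intensity of the 9 of 10 listed proliferation markers on the array, among them Top2a and Plk1, was 5.95 to 6.06 in the refed groups, 8.75 to 10.66 in the hepatectomy groups and 10.07 to 10.26 in the fetal groups. That of 7 of 10 erythroid markers was 7.85 to 9.02 in adult groups and 12.50 to 12.63 in fetal groups, and that of 10 of 10 hepatocyte markers, present in all livers, was 13.24 to 13.58 and 12.08 to 12.19. Of these 10, in fetal against refed DMSO total RNA, Tat (-5.44), Cyp2e1 (-3.86), Pck1 (-2.10) and Hnf4a (-0.92) were called lower, while Alb, Ttr, Apoa1, Apoh, Serpina1 and Cps1 lay at -0.21 to 0.18, with Ttr and Apoa1 called higher. Lymphocyte markers (5 of 7 on the array, 3 of them above the filter) stood at 7.08 to 7.52 in adult and 8.31 to 8.52 in fetal groups. Most of that difference was in 1 gene, Nkg7 at 4.53 in fetal against refed DMSO total RNA, with Cd79b at 0.74 and Ptprc at 0.55. Their part in the differences of the sterol genes was not tested. In whole liver RNA, fewer cells of a type and less RNA per cell cannot be told apart, and the models differ in age, feeding, surgery and time after injection all at once.

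Rapamycin was compared with DMSO within each model and fraction. In these 6 comparisons 0 of the 7 genes passed the limma threshold. Of all transcript clusters 6.35% passed in hepatectomy polysome RNA and 5.01% in hepatectomy total RNA, and 0% in each of the 4 refed and fetal comparisons. Of the hepatectomy calls 35.5% and 29.4% were higher with rapamycin in polysome and total RNA, and 57.7% and 55.5% with median centring. At an unadjusted p under 0.05 there was 1 gene in each hepatectomy fraction, Fdft1, against 25.5% and 23.6% of all transcript clusters in polysome and total RNA. In the refed and fetal comparisons 0 of the 7 reached an unadjusted p under 0.05, against 1.83% to 16.9% of all. These fits did not pair the fetal arrays of equal number. With the number as a block, the interval of Fdps in fetal total RNA did not reach 0, as given below.

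After hepatectomy all 7 transcripts were on the higher side with rapamycin in both fractions, by 0.10 to 0.60 in polysome RNA and 0.10 to 0.50 in total RNA, with medians of 0.27 and 0.25 (-0.01 over all tested in each). The fractions share livers, so their like signs are no repeat. The 7 genes also varied together from liver to liver, so like signs here and below are not separate observations. DMSO replicate 3 was the lowest for 6 of the 7 in total RNA (25.3% of all) and all 7 on polysomes (29.0%). Its mean deviations were -0.30 and -0.38. Rapamycin replicate 3 was the highest for all 7 in both (33.0% and 34.0% of all). Fdft1 on polysomes measured 12.66, 12.54 and 12.77 with rapamycin and 12.49, 12.20 and 11.77 with DMSO. The groups did not overlap, as in 11.3% of all transcript clusters in that direction, and the difference was 0.51 ± 0.181 (adjusted p = 0.108). In total RNA it measured 12.66, 12.60 and 13.07 against 12.61, 12.28 and 12.12, with DMSO replicate 1 just above the lowest rapamycin liver, and differed by 0.44 ± 0.181 (adjusted p = 0.171). Without hepatectomy DMSO replicate 1 it was called in both, at 0.67 on polysomes (adjusted p = 0.0203) and 0.57 in total RNA (adjusted p = 0.0439).

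Lss had the largest value after hepatectomy, 0.60 ± 0.282 on polysomes (adjusted p = 0.204, 95% interval -0.01 to 1.22). Its livers measured 10.68, 10.60 and 10.99 with rapamycin and 10.24, 10.70 and 9.53 with DMSO. DMSO replicate 2 lay among the rapamycin livers and replicate 3 lay well below. Sqle differed by 0.41 and 0.36, Idi1 by 0.27 and 0.11, Cyp51 by 0.16 and 0.25, Fdps by 0.14 and 0.10 and Insig1 by 0.10 and 0.10 in polysome and total RNA. Proliferation markers were lower with rapamycin in the same livers, at a mean of 8.75 against 10.59 in total RNA and 9.06 against 10.66 on polysomes. Endothelial markers (6 of 7 on the array) were higher in those livers, at 9.70 to 9.82 against 9.01 to 9.40 in total RNA and 9.31 to 9.40 against 8.56 to 9.12 on polysomes, without overlap. Stellate and fibroblast markers (7 of 7) stood at 9.84 to 9.96 against 9.31 to 9.71 in total RNA and 9.07 to 9.31 against 8.63 to 9.21 on polysomes. Macrophage markers (7 of 7) were at 10.25 to 10.39 against 9.71 to 10.20 on polysomes, and overlapped in total RNA at 10.31 to 10.55 against 10.15 to 10.55. Bile duct markers (5 of 6) stood at 7.62 to 7.70 against 7.39 to 7.55 in total RNA, and overlapped on polysomes at 7.16 to 7.27 against 6.92 to 7.27. The mean of erythroid markers (7 of 10) was 9.02 against 8.61 on polysomes. Their livers overlapped in both fractions, at 8.88 to 9.28 against 8.46 to 8.89 on polysomes and 8.29 to 8.80 against 8.11 to 8.52 in total RNA. The part of these markers in the values of the sterol genes was not tested.

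In fetal liver 6 of the 7 transcripts were on the lower side with rapamycin in each fraction, with medians of -0.16 on polysomes and -0.15 in total RNA. The furthest was -0.27 for both Idi1 on polysomes and Fdps in total RNA, and Fdft1 was at 0.03 and 0.07. Fdps in total RNA measured 12.54, 12.63, 13.16 and 12.94 with rapamycin and 12.99, 12.87, 13.17 and 13.31 with DMSO. The groups overlapped, but arrays of equal number varied together in this model, and within the 4 pairs rapamycin minus DMSO was -0.45, -0.24, -0.01 and -0.38, lower in 4 of 4. On polysomes Fdps was likewise lower in 4 of 4 pairs, at -0.27 to -0.09, as was Idi1, at -0.71 to -0.02. The share of all transcript clusters lower in 4 of 4 pairs was not counted. With the number as a block Fdps in total RNA stood at -0.27 ± 0.0875 (95% interval -0.46 to -0.08) and did not pass the threshold over all tested (adjusted p = 0.725). That fit counted the total and polysome arrays of a liver as separate, so its interval may be too narrow. Fdps was also the furthest of the 7 genes in total RNA, so no difference is read from the interval.

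In refed livers the signs were mixed, from -0.34 for Idi1 and Sqle to 0.30 for Fdft1 on polysomes and from -0.36 for Lss to 0.56 for Insig1 in total RNA. Insig1 in total RNA measured 11.16, 11.94 and 11.98 with rapamycin and 10.11, 12.26 and 11.03 with DMSO, so the DMSO livers spanned all the rapamycin livers. These comparisons were the least precise. The 95% intervals reached 0.55 to 1.20 to either side of the estimate, against 0.30 to 0.61 after hepatectomy. In fetal liver, without the pairing, they reached 0.33 to 0.53. An adjusted p above the threshold therefore does not show that rapamycin left these transcripts as they were.

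**Figure D3:**
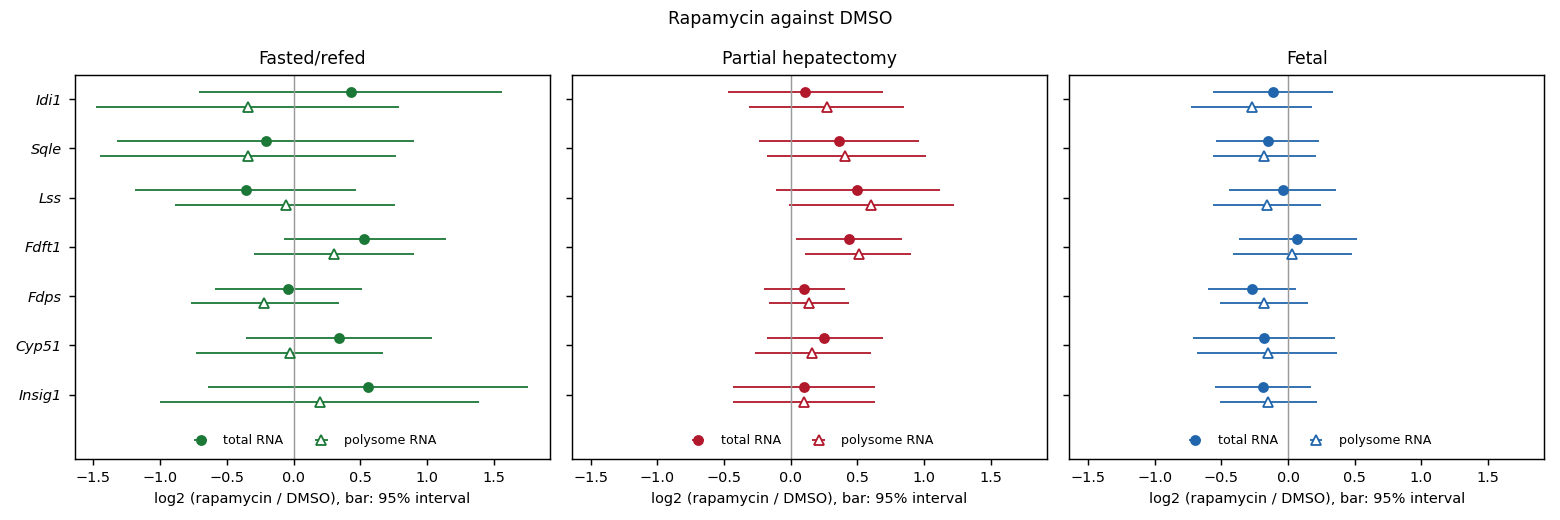
Log2 ratio of rapamycin to DMSO (horizontal axes) for the 7 genes in each model, circles for total and triangles for polysome RNA. Bars are 95% intervals of the fit within a model, without pairing of arrays. After hepatectomy all points are above 0, at 0.10 to 0.60, and none of the points in the 3 panels passed the adjusted threshold. The genes vary together and the fractions share livers, so the points of a panel are not separate observations.

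The difference of the rapamycin effect between models or fractions was tested as an interaction, and 0 of the 7 genes were called in any of the 9 interactions with limma. These fits counted both arrays of a liver as separate, which leaves the interactions between fractions imprecise. In them none of the 7 had an unadjusted p under 0.05, against 0.414% to 16.7% of all transcript clusters. Of all transcript clusters 0.516% and 0.120% were called for hepatectomy minus refed in total and polysome RNA, 0.00921% in 3 interactions and 0% in the other 4. The fetal effect minus the hepatectomy effect was negative for all 7 genes in both fractions, at -0.76 to -0.24 on polysomes and -0.54 to -0.22 in total RNA. The smallest p of these belonged to Lss on polysomes, at -0.76 ± 0.414 (adjusted p = 0.828). The effect on polysomes minus that in total RNA ran from -0.77 for Idi1 to 0.29 for Lss in refed livers, from -0.09 to 0.16 after hepatectomy and from -0.16 to 0.09 in fetal liver. Within refed livers, polysome minus total for Insig1 was 0.07 to 0.32 with DMSO and -0.19 to -0.06 with rapamycin. For Cyp51 it was 0.01 to 0.13 and -0.48 to -0.07, and for the other genes the livers overlapped. No share of all transcript clusters was counted for this. In fetal minus refed total RNA Insig1 was at -0.75 ± 0.500 (adjusted p = 0.468), and it was called without refed DMSO replicate 2, at -1.32 (adjusted p = 0.0265).

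Polysome RNA was compared with total RNA in the DMSO livers. Both fractions were scaled to like distributions, so a value above or below 0 says how a transcript stands relative to the others in the fraction. Without regard to which arrays share a liver, 0 of the 7 genes were called in any model (24.7%, 43.8% and 14.5% of all transcript clusters in refed, hepatectomy and fetal liver). At an unadjusted p under 0.05 there were also 0, against 37.6%, 52.1% and 29.6% of all. The 2 arrays of a liver deviated together, with correlations of 0.33 to 0.82 over all transcript clusters, and with the liver as a block 3 genes were called in refed liver, 5 after hepatectomy and 2 in fetal liver (42.5%, 61.0% and 28.0% of all). These counts lie near the shares of all, so they do not set the 7 genes apart.

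After hepatectomy Sqle, Lss, Cyp51 and Fdft1, the enzymes from squalene synthesis onward, were lower on polysomes with the liver as a block, and 22.0% of all transcript clusters were. Sqle was at -0.58 ± 0.0797 (adjusted p = 2.29e-05), or 67.1% of its scaled intensity in total RNA. It was below in all 3 livers at -0.70 to -0.43. Lss was at -0.55 ± 0.0883 (adjusted p = 8.94e-05), or 68.4% by the same measure. Cyp51 was at -0.31 ± 0.0650 (adjusted p = 0.000850) and Fdft1 at -0.18 ± 0.0752 (adjusted p = 0.0451). Fdps alone was higher on polysomes, at 0.21 ± 0.0595 (adjusted p = 0.00783, 39.1% of all higher). Idi1 at 0.15 and Insig1 at -0.03 were not called.

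In refed livers Idi1 was higher on polysomes by 1.12 ± 0.229 (adjusted p = 0.00390), with 1.47, 0.36 and 1.53 in the 3 livers. All 3 were above 0, but replicate 2 much less so. Fdft1 was higher by 0.54 ± 0.129 (adjusted p = 0.00791) and Fdps by 0.45 ± 0.0879 (adjusted p = 0.00301), against 31.7% of all called higher. In fetal livers Cyp51 was lower on polysomes at -0.46 (adjusted p = 0.0147) and Fdft1 at -0.25 (adjusted p = 0.0421), against 12.1% of all called lower. Fdft1 was thus called in opposite directions in refed liver and in the other models, a difference that was not tested. The signs near 0 rest on the scaling: median centring moved the median of all transcript clusters from 0.10 to -0.16 in refed liver, from 0.09 to -0.09 after hepatectomy and from 0.04 to -0.05 in fetal liver. Under it, without the block, Fdps after hepatectomy was at 0.02 and Idi1 at -0.03, while Sqle was at -0.76, and in refed liver Idi1 was at 0.86, Fdft1 at 0.28 and Fdps at 0.19. The share of calls that were higher went from 79.2% to 34.6%, 65.8% to 37.9% and 55.9% to 32.2% in the 3 models.

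Over all 20 livers, treated ones included, directions were counted under the deposited scaling, and those of values near 0 rest on it. How often other transcript clusters kept a direction was not counted. Fdps was higher on polysomes in 19 of 20 livers and Idi1 in 16, while Cyp51 was lower in 17. Sqle was lower in all 6 hepatectomy livers, in 5 of 8 fetal and 2 of 6 refed livers, and Lss in 6, 3 and 5. Cyp51 was lower in all 6 hepatectomy and all 8 fetal livers and in the 3 refed livers with rapamycin, while the 3 refed DMSO livers were at 0.01 to 0.13. Fdft1 was lower in 5 of 6 hepatectomy and 8 of 8 fetal livers and in 0 of 6 refed livers.

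**Figure D4:**
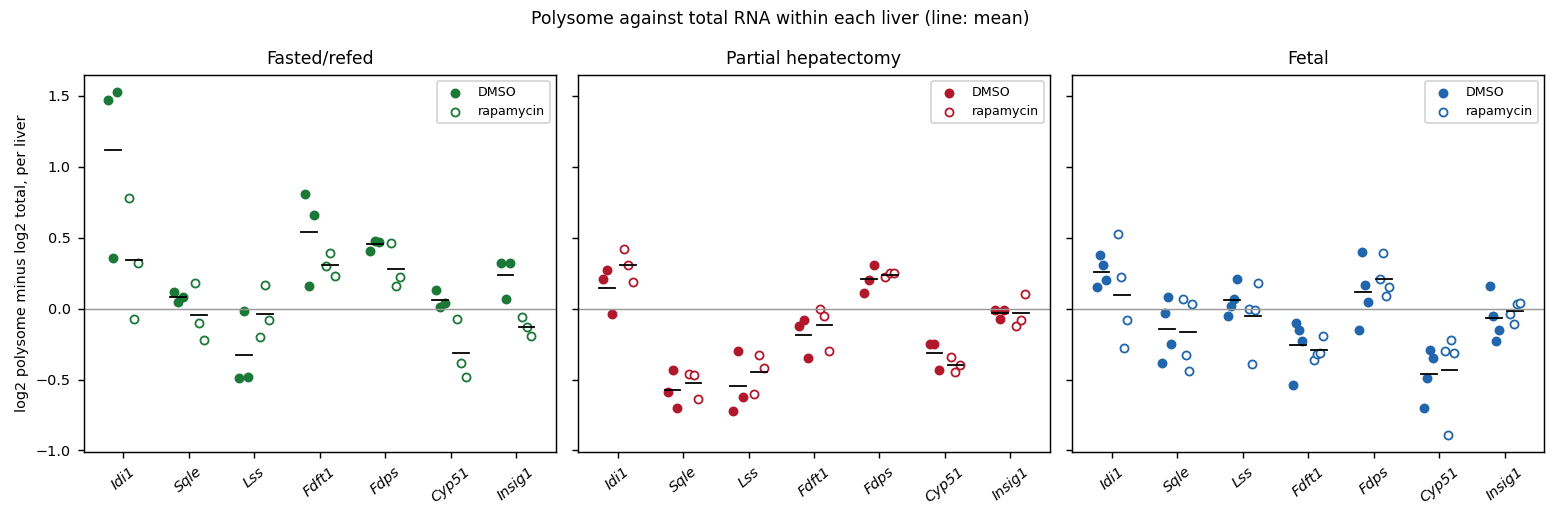
Log2 polysome minus log2 total intensity within each liver (vertical axis) for the 7 genes (horizontal axis) in the 3 models, filled for DMSO and open for rapamycin, with lines at the mean of 3 adult or 4 fetal livers. Fdps lies above 0 in 19 of 20 livers, Sqle and Lss lie below 0 in all 6 hepatectomy livers, and Idi1 reaches 1.53 in a refed liver. Where 0 lies depends on the scaling of the fractions.

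The 7 transcripts varied together from liver to liver within a group. After each array was set against its group mean, the 21 pairs of genes had a median correlation of 0.75 over the 40 arrays, from 0.38 for Lss with Fdft1 to 0.88 for Fdft1 with Cyp51. The arrays share livers and hybridisation, so these are descriptions. In refed DMSO replicate 1, 6 of the 7 genes in total RNA and all 7 on polysomes were the lowest of their group, with mean deviations of -0.66 and -0.57. The same array was lowest for 32.8% and 30.2% of all transcript clusters. Hepatectomy rapamycin replicate 3 was the highest for all 7 genes in both fractions, with mean deviations of 0.34 and 0.30 (33.0% and 34.0% of all highest there). Fetal rapamycin replicate 3 was likewise the highest for all 7 in both, at 0.40 and 0.33 (23.9% and 30.7% of all).

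The spread was largest in refed livers. The mean of the 7 genes had an SD over livers of 0.350 to 0.588 in the 4 refed groups and of 0.219 to 0.332 in the other 8. Between the lowest and highest refed DMSO liver the mean differed by 1.13 in total RNA, against 0.56 after hepatectomy and 0.48 in fetal liver. Insig1 spanned 10.11 to 12.26 and Idi1 6.94 to 8.89 in that group, the widest spans of the 7. The refed group means above therefore rest on livers that differ more among themselves than those of the other models do, a contrast for which no test was made.

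**Figure D5:**
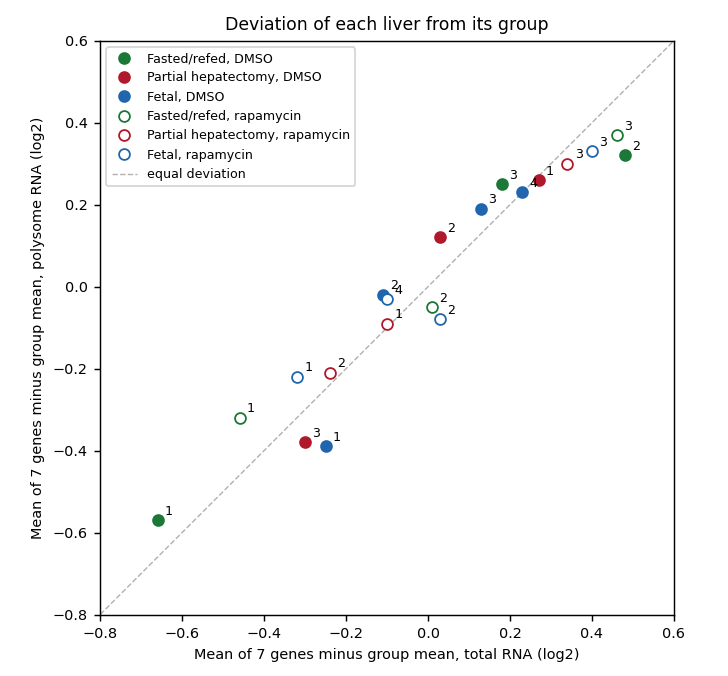
Mean deviation of the 7 genes from their group mean in total RNA (horizontal axis, log2) and polysome RNA (vertical axis, log2), 1 point per liver with its replicate number; colour gives the model, filled points DMSO and open points rapamycin, and the dashed line marks equal deviation. The livers lie along the line, from -0.66 for refed DMSO replicate 1 to 0.48 for refed DMSO replicate 2 in total RNA.

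The genes whose profile was most like the mean profile of the 7 were sought among 10190 other genes over the 40 arrays. Over all arrays the highest correlations were those of Acat2 at 0.92 (the cytosolic acetyl-CoA acetyltransferase that starts the pathway), Acsl3 at 0.89 (a long-chain acyl-CoA synthetase), Msmo1 at 0.85 (a sterol methyl oxidase), Rrm2 at 0.84 (a subunit of ribonucleotide reductase) and Abcg2 at 0.83 (a membrane transporter). Ceacam4 at 0.82, Ddhd1 at 0.82, the mevalonate kinase Mvk at 0.82, the histone gene Hist2h3c2 at 0.81 and Pla2g2a at 0.81 followed. Over all genes the median was -0.01 and the 99th percentile 0.73. Of the other measured cholesterol synthesis genes, Nsdhl at -0.03, Sc5d at 0.03 and Dhcr7 at 0.23 did not follow the profile. They were named after their values were seen, and the rest of that list stood at 0.59 to 0.92. All these values include the differences between models.

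With each array set against its group mean, which leaves only the variation between livers of a group, the highest were Mvd at 0.87 (mevalonate diphosphate decarboxylase), Msmo1 at 0.80, Acat2 at 0.80, Aacs at 0.76 (acetoacetyl-CoA synthetase) and Acss2 at 0.73 (acetyl-CoA synthetase). Ppard at 0.73, Rnf181 at 0.70, the phosphomevalonate kinase Pmvk at 0.70, Dusp12 at 0.70 and Fkbpl at 0.69 followed, against a median of 0.07 and a 99th percentile of 0.53. Of the 12 other cholesterol synthesis genes measured, 10 correlated above that percentile, Dhcr7 stood just under it, and Lbr, a sterol reductase that is also a nuclear membrane protein, was at -0.28. Fatty acid synthesis genes, named after their values were seen, lay above it too. Beside Acss2 these were Thrsp at 0.66, Scd at 0.65, Fasn at 0.64, Fads1 and Pnpla3 at 0.62 and Fads2 at 0.56. The rest of that list stood at 0.10 to 0.50. The shared variation is thus not particular to sterol synthesis. The correlations are across arrays that share livers and carry no p.

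The rest of the pathway was described from lists. Of 12 measured genes of cholesterol synthesis outside the set, 6 were higher and 0 lower after hepatectomy than on refeeding in DMSO total RNA (12.4% of all higher). Lbr was higher by 1.48 ± 0.201 (adjusted p = 1.34e-06), the sterol reductase Tm7sf2 by 2.11 ± 0.322 (1.01e-05), Acat2 by 1.53 ± 0.336 (0.00139) and the sterol isomerase Ebp by 0.84 ± 0.227 (0.00924). In fetal against refed liver 7 were higher and 1 lower, led by Lbr at 2.71 ± 0.188 (adjusted p = 1.03e-13) and Mvk at 1.10 ± 0.186 (9.21e-06), and the 1 lower gene, named after its values were seen, was the sterol dehydrogenase Nsdhl at -0.35 ± 0.125 (0.0236), against 47.1% of all called in either direction. With rapamycin 0 of the 12 were called in any of the 6 comparisons, against 0% to 6.35% of all.

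Of 6 measured genes of the SREBP machinery, 0 were called between hepatectomy and refed livers (12.4% of all higher, 5.03% lower). Between fetal and refed livers 4 of the 6 were called, against 47.1% of all, and 2 were higher, Lpin1 (2.72 ± 0.332, adjusted p = 3.24e-08), a phosphatidate phosphatase, and Srebf2 (0.48 ± 0.137, 0.00428), which encodes SREBP-2. The other 2 called were lower: Insig2 (-2.46 ± 0.364, 1.18e-06), the relative of Insig1, and the site-2 protease gene Mbtps2 (-0.54 ± 0.132, 0.00102). Insig1 and Insig2 thus stood in opposite directions in fetal liver, Insig1 at 1.62 and Insig2 at -2.46.

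Of 11 measured genes of sterol uptake and handling, 3 were higher after hepatectomy than on refeeding (12.4% of all), Tmem97 (1.38 ± 0.228, adjusted p = 3.49e-05), Npc2 (0.79 ± 0.172, 0.00121) and Stard4 (0.68 ± 0.243, 0.0479). In fetal against refed liver 6 of the 11 were called, near the 47.1% of all. Of these 5 were higher (28.1% of all), led by the cholesterol esterifying enzyme Soat1 (1.43 ± 0.206, adjusted p = 7.48e-07), and 1 was lower, the endocytic receptor Lrp1 (-0.93 ± 0.207, 0.000379). With rapamycin after hepatectomy, where 2.26% of all were higher and 4.10% lower on polysomes, Lipa (0.57 ± 0.139, adjusted p = 0.0371) and Mylip (0.35 ± 0.0863, 0.0374) were higher and Tmem97 (-0.63 ± 0.0788, 0.00540) and Soat2 (-0.51 ± 0.132, 0.0450) lower there. In total RNA (1.47% of all higher, 3.54% lower) Tmem97 (-0.86 ± 0.0788, adjusted p = 0.000637) and Soat2 (-0.56 ± 0.132, 0.0364) were lower.

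Of 17 measured genes of sterol output, which covers bile acid synthesis and sterol export, 1 was lower after hepatectomy than on refeeding, the exporter Abca1 (-0.62 ± 0.202, adjusted p = 0.0308, 5.03% of all lower). In fetal against refed liver 9 of the 17 were called, near the 47.1% of all called in either direction, 8 lower and 1 higher, among them the sterol exporter Abcg5 (-2.59 ± 0.318, adjusted p = 3.60e-08), the oxysterol hydroxylase Cyp39a1 (-2.58 ± 0.296, 9.69e-09) and the reductase Akr1d1 (-1.60 ± 0.241, 1.61e-06), with Abcg1 higher (1.34 ± 0.151, 5.71e-09). With rapamycin after hepatectomy Nr0b2, the repressor SHP, was higher on polysomes (1.51 ± 0.245, adjusted p = 0.0120) and in total RNA (1.38 ± 0.245, 0.0199). Cyp8b1, the sterol hydroxylase of bile acid synthesis, was lower in both (-1.38 ± 0.298, adjusted p = 0.0290, and -1.62 ± 0.298, 0.0213), and Nr1h4 was higher on polysomes (0.41 ± 0.110, 0.0477). In refed and fetal liver 0 genes of either list were called with rapamycin, as was the case for all transcript clusters.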

How the data were processed

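Affymetrix Rat Gene 1.0 ST arrays measured liver RNA. The deposited values were intensities on a linear scale, 1 per transcript cluster, that the authors had made with RMA (background correction, scaling of the arrays to 1 distribution, probe summary), per the submitters' processing notes; neither its version nor the set of arrays scaled together is given in the sources used here. RMA removes changes shared by all transcripts of an array, and a difference between models cannot be told apart from one between their array runs. Depth is not defined for arrays, and their number limits the precision. Values were log2-transformed here without a pseudocount.

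GEO's platform annotation gave 1 gene symbol to 15209 transcript clusters, several to 306 and none to 13311, which are unnamed here. The 10860 tested had a symbol and a mean log2 intensity of 6.70 or more, the 30th percentile over named ones. limma 3.58.1 in R 4.3.3 was used (moderated by empirical Bayes, variance trend on intensity; two-sided p adjusted by Benjamini-Hochberg over all tested, threshold 0.05). Comparisons within a model used its own arrays, with 8 (adult) or 12 (fetal) residual degrees of freedom, and those across models all 40, with 28. Scripts were tested on simulated data. Errors are SE of the fit or SD between livers.

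Array pairs were checked by the correlation of deviations from group means. Polysome and total arrays of 1 liver, given by treatment and number in the titles, correlated at 0.33 to 0.82 and were taken as pairs. DMSO and rapamycin arrays of equal number correlated at 0.42 to 0.75 in fetuses (paired), -0.07 to 0.28 after hepatectomy and -0.62 to 0.39 on refeeding (not paired). The fetal sample descriptions number the animals otherwise than the titles do, and the title numbers were used. Polysome preparations were pooled, per the labels' protocols, with no word on whether that means animals, so p-values measure the spread between numbered samples.

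The 8 genes and all lists were chosen with earlier results of these data known. The rule for named genes took the 8 genes, up to 4 genes per other list and comparison with the smallest adjusted p, and the 10 genes most like the mean profile. Alternatives were no filter, cyclic loess scaling, median centring, no intensity trend, all arrays in one fit, the replicate block, and leaving out each liver. Added after seeing the data were the other fractions and treatments in the model and polysome comparisons, and fits on only the arrays of the 2 groups compared. Scan batches were not used here. Promoters came from RefSeq on GRCr8.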

Additional observations from a re-analysis of the deposited data

Results flagged for a closer look

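Fetal polysome DMSO replicate 1 stood apart from the other 3 livers of its group for Sqle and for Fdps. Sqle measured 10.59 there and 11.08 to 11.13 in the others, a gap of 0.918 of the group's whole range. Fdps measured 12.84 there and 13.27 to 13.36 in the others, a gap of 0.838 of the range. Both lie beyond Dixon's 95% critical value for 4 samples. In all, 28 groups of 4 values were examined, of which chance flags about 1 in 20. The genes of 1 array are not independent, and in total RNA the same liver measured 10.98 for Sqle and 12.99 for Fdps, against 11.00 to 11.37 and 12.87 to 13.31 in the others.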

How the results depend on the processing

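The 7 genes in 21 comparisons gave 147 values, recomputed 2135 times under the alternatives: 1981 kept direction and side of the threshold, 7 lost the call, 27 gained it, 0 called values changed sign, and 120 changed sign with neither value called. Changes in the count of genes called included these. For polysome against total RNA with the replicate block, which joins the arrays of a liver, 3 genes were called in refed, 5 in hepatectomy and 2 in fetal liver in place of 0. The block changed no other count of these genes, though it moved the calls over all transcript clusters from 690 to 1481 and from 544 to 1246 for rapamycin after hepatectomy, where the numbers do not pair the livers. Median centring called 1 gene after hepatectomy on polysomes (Sqle, -0.76), and all arrays in one fit called 1 in refed liver (Idi1, 1.12). Between fetal and hepatectomy livers 2 genes were called with DMSO polysome arrays, 1 with rapamycin total, 2 with rapamycin polysome, and 2 with only the arrays of the 2 groups. For hepatectomy against refed liver 4 genes were called with DMSO polysome and 5 with rapamycin polysome arrays in place of 6. There Insig1 and Fdps lost the call with only the arrays of the 2 groups. For fetal against refed liver 7 genes were called with each of the other fractions and treatments in place of 6. Leaving out 1 liver gave 5 to 6 called genes for hepatectomy and 6 to 7 for fetal against refed liver, 0 to 1 for rapamycin after hepatectomy in each fraction (Fdft1), 0 to 1 for the fetal minus refed effect in total RNA (Insig1), and 0 to 0 for the rest. Replacing Insig1's transcript cluster by its other one, which correlated at 0.98 with it, changed no call. The causes were not tested. Groups of 3 livers, with wide refed spread, limit what could be resolved.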

Other observations

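Fatty acid synthesis genes, which SREBP-1c serves, were described beside the sterol genes. Of 15 measured, 3 were higher and 0 lower after hepatectomy than on refeeding in DMSO total RNA, against 12.4% of all higher, with the desaturase Scd at 2.09 ± 0.595 (limma, adjusted p = 0.0133) and Acss2 at 0.91 ± 0.269 (0.0174). In fetal against refed liver 4 were higher and 5 lower (47.1% of all called in either direction). The lower ones were led by Thrsp, a lipogenic regulator (-4.09 ± 0.417, adjusted p = 7.76e-10), and malic enzyme Me1 (-2.28 ± 0.243, 2.02e-09). With rapamycin 0 of the 15 were called in any model, against 0% to 6.35% of all. On polysomes the rapamycin effect in fetal liver was above 0 for 0 of the 15, with a median of -0.23 against -0.03 over all tested, and after hepatectomy the median was 0.47 against -0.01. In fetal total RNA Acacb at 0.47, Mlxipl at 0.25 and Elovl6 at 0.05 were above 0 and the rest below. On refed polysomes the signs were mixed, from -1.61 for Elovl6 to 0.73 for Thrsp.

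Of 7 measured genes of other isoprenoid branches, 1 was lower after hepatectomy than on refeeding, the geranylgeranyl transferase subunit Pggt1b (-0.75 ± 0.210, adjusted p = 0.0117, 5.03% of all lower). In fetal against refed liver 3 of the 7 were called, near the 47.1% of all: the farnesyl transferase subunits Fntb (1.07 ± 0.151, 4.86e-07) and Fnta (0.62 ± 0.168, 0.00300) were higher and Pggt1b lower (-0.52 ± 0.196, 0.0304). With rapamycin 0 of these were called, against 0% to 6.35% of all.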
